A study of Mus musculus with 12 samples.

Results

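The genes described here are 10 members of the immediate early response, namely *Egr1*, *Egr2*, *Egr3*, *Ier2*, *Ier3*, *Ier5*, *Dusp1*, *Dusp2*, *Zfp36* and *Btg2*. They were chosen by name and family, with earlier results of these data known. They stand among 13574 genes with counts at 0 h or 4 h. RNA was sequenced from spleen follicular B cells, the main recirculating mature B cells, sorted from adult male mice as CD21/35- CD23+ cells. WT mice were Gpr174+/Y. KO mice were Gpr174-/Y, in which the only coding exon of *Gpr174*, an X-linked receptor gene, was replaced by the red fluorescent protein tdTomato in the germline, so that the B cells had also developed without the receptor. Cells were frozen either directly (0 h) or once they had spent 4 h in culture (complete RPMI, no stimulus added), with 3 libraries in each of the 4 groups. Of the 10 genes, 9 were counted at both times and were tested in every comparison. *Ier3* was counted at 4 h only.

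Immediate early genes are transcribed within minutes of a signal, without new protein synthesis, and most of their mRNAs and proteins are short-lived. In B cells they are known as rapid responders to the antigen receptor, through ERK and the serum response factor, to cAMP, through CREB, and to handling stress. The EGR proteins are zinc finger transcription factors that bind GC-rich sites. The IER proteins are a loose group of small regulators. DUSP1 and DUSP2 are nuclear phosphatases that switch off MAP kinases, ZFP36 (tristetraprolin) promotes decay of mRNAs with AU-rich elements, and BTG2 is an antiproliferative protein that promotes shortening of poly(A) tails.

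Library totals ran from 6098941 to 11618787 counts. Levels are given in CPM, the read count of a gene relative to library size, on library totals scaled by TMM, a factor that corrects for differences in RNA composition. *Gpr174* itself had 149.4 to 156.8 CPM in WT and 73.4 to 76.7 CPM in KO at 0 h, and 152.5 to 168.9 CPM in WT and 104.7 to 118.2 CPM in KO at 4 h. The count is given for the whole gene, and which part of it the reads in KO came from was not tested. Of 10 follicular B cell markers 8 were counted, with *Ighd* and *Ighm* not among them, and summed to 6028 to 9197 CPM. The 9 T cell markers counted summed to at most 13.4 CPM. Of 8 erythroid markers 2 were counted, and they summed to 44.1 to 59.0 CPM in WT and 40.4 to 125.1 CPM in KO at 0 h. At 4 h these 2 summed to 52.2 to 64.5 CPM in WT and 40.9 to 95.7 CPM in KO. Macrophage, neutrophil and other markers are given further below. *Cr2*, which encodes the CD21/35 that the sort label gives as negative, stood at a mean of 1069 CPM in WT and 960 CPM in KO at 0 h, and at 158.7 and 299.4 CPM at 4 h.

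Promoters of the 4 genes below are shown because *Dusp1*, *Btg2* and *Dusp2* differed in the same direction between genotypes at 4 h while *Zfp36*, which shares a motif with *Dusp2*, did not pass the test. RefSeq promoter windows (build GRCm38.p6, 250 bases before to 50 after the start) matched 7 of the 10 genes, with *Egr1*, *Egr3* and *Ier2* not matched. Each line gives the 250 bases before the start, 5′ to 3′ on the gene's strand. They lie at chr17:26508473-26508722 (minus strand) for *Dusp1*, chr1:134079156-134079405 (minus strand) for *Btg2*, chr2:127335909-127336158 (plus strand) for *Dusp2* and chr7:28379229-28379478 (minus strand) for *Zfp36*. Capitals mark the cAMP response element TGACGTCA and its shorter form TGACG in *Dusp1* and *Btg2*, the EGR site GCGGGGGCG in *Dusp2* and *Zfp36*, and the CArG box, the serum response element, in *Zfp36*.
Dusp1: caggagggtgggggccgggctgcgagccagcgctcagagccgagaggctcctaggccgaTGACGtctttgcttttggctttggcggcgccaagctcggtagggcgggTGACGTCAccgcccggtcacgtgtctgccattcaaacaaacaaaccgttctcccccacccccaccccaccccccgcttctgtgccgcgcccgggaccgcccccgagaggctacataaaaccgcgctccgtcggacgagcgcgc
Btg2: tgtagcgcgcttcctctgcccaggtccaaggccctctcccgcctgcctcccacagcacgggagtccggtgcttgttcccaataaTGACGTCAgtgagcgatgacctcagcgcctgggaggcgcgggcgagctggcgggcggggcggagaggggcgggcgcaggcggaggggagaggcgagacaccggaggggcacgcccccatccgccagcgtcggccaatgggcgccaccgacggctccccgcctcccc
Dusp2: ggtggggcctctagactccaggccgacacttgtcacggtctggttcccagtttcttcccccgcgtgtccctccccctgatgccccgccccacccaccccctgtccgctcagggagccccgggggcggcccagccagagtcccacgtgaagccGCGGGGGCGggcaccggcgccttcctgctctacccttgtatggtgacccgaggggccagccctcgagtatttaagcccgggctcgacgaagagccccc
Zfp36: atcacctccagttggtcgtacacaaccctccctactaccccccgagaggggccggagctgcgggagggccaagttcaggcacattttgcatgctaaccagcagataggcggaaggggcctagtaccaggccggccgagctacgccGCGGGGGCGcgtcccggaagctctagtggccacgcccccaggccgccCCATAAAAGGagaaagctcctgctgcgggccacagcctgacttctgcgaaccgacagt
Both strands were searched, and the shorter form lies within every full cAMP response element. The full element was in the windows of *Dusp1*, 143 bases before the start, and of *Btg2*, 166 bases before it, and 1.79% of all 32851 windows of this length hold it. The shorter form was also in windows of *Egr2* and *Dusp2* and is in 20.8% of all windows. The EGR site lay 98 bases before the start in *Dusp2* and 105 bases in *Zfp36* (2.91% of windows), and GCGTGGGCG was in no window of the 7 genes (0.612%). A CArG box lay 58 bases before the start in *Zfp36* and was in 4 of the 5 *Egr2* windows (1.63%). The matches in *Egr2* are 2 separate boxes, 1 of them in the 3 windows that overlap each other. TATAAA was in none of these windows (13.6%). These matches are letters in a window and do not show binding. The 4 printed genes were picked with their 4 h values known, so a link between motif and direction was not tested. *Egr2*, which has the shorter form, had a WT over KO log2 fold change of -0.33 ± 0.11 (SE) at 4 h and was not called.

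The question at 0 h was whether the genes already differed between WT and KO before culture. None of the 9 genes tested passed the test, against a background of 0.987% of all 11345 genes. Of the 9, 3 (*Egr1*, *Egr2* and *Ier5*) had an unadjusted p under 0.05 by edgeR's quasi-likelihood test. The highest of these edgeR p, 0.0499 in *Egr2*, ranked 1441 among the 11345 genes, so many other genes also passed this looser threshold. DESeq2 likewise called 0 of the 9. Log2 fold changes, as WT over KO, ran from -0.42 in *Egr2* to 0.39 in *Dusp1*, with a median of 0.07 beside 0.00 over all genes. Libraries of the 2 genotypes stood apart in 2 of the 9, *Egr3* and *Ier5*, both higher in WT, where 18.3% of all genes did not overlap. In these bulk samples fewer cells of a kind and less RNA per cell cannot be told apart.

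After 4 h of culture some of the genes differed by genotype, in both directions. *Dusp1*, *Ier2*, *Dusp2* and *Btg2* were higher in WT, by 1.26-fold to 2.24-fold, while *Egr3* and *Egr1* were lower in WT, by 1.54-fold and 1.33-fold. This made 6 of 9 genes called at an edgeR adjusted p under 0.05, where 10.9% of the 11123 genes tested were called. In the single directions the background was 5.22% higher and 5.67% lower in WT. Libraries of the genotypes did not overlap for those 6 genes and *Egr2*, 7 of 9, against 27.9% of all genes. With changes of both signs the median log2 fold change was 0.02, beside 0.00 over all genes. Of the 6 genes called, only *Ier2*, *Dusp2* and *Egr3* were also called in the interaction below, which compares the difference at 4 h with that at 0 h.

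**Figure D1:**
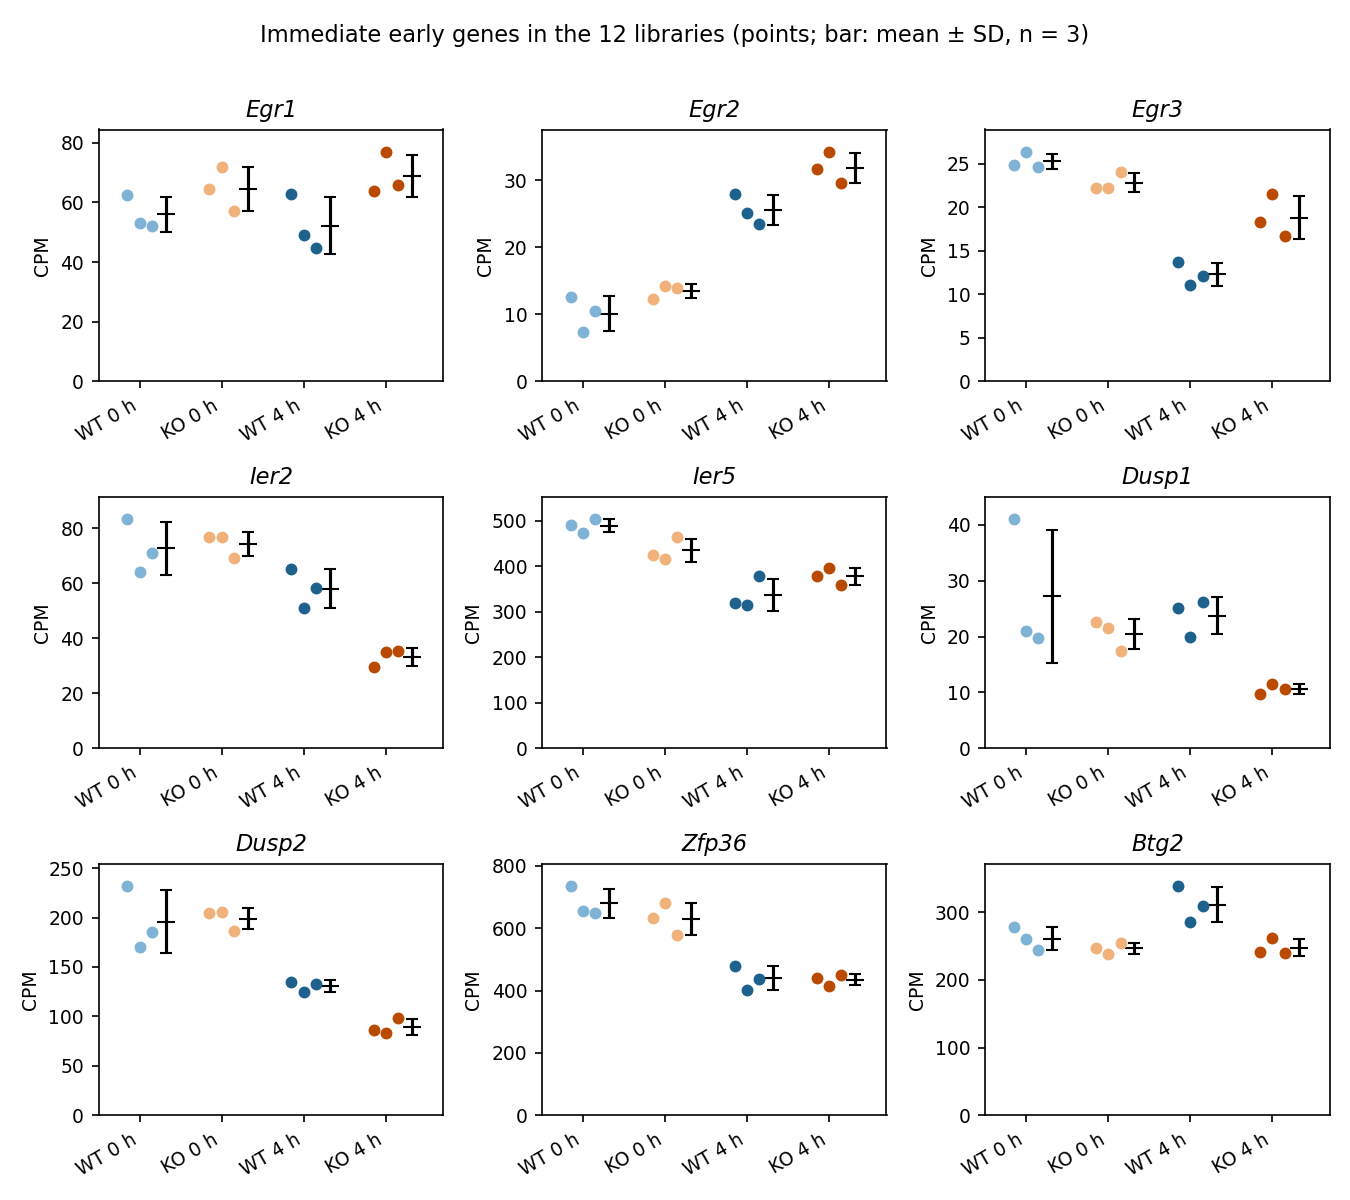
Level of each of the 9 tested genes (CPM, linear axis from 0) in the 12 libraries, with points for libraries in replicate order within each group and a bar for the mean ± SD (n = 3). *Ier2*, *Dusp1* and *Dusp2* are lowest in the KO 4 h libraries, *Egr3* is lowest in the WT 4 h libraries, and the WT 0 h replicate at 41.0 CPM stands apart in *Dusp1*.

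**Figure D2:**
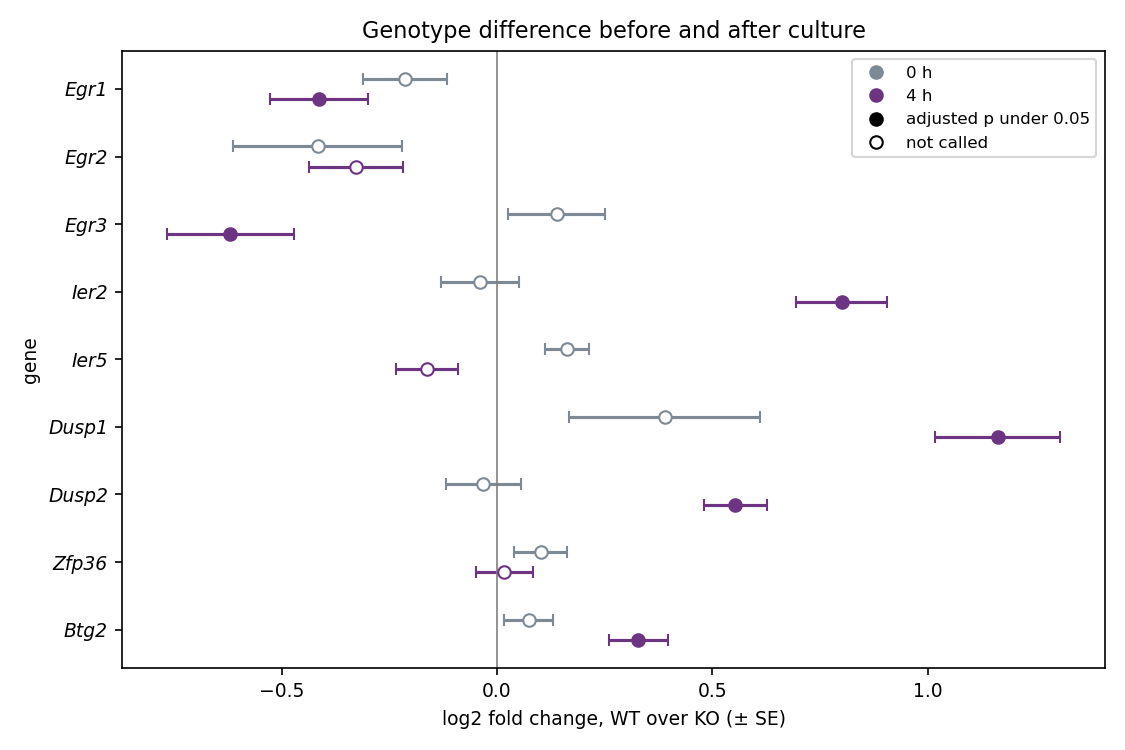
Log2 fold change of WT over KO (x axis, point ± SE) for each gene (y axis) at 0 h and 4 h, from 3 libraries a group, with filled points for an adjusted p under 0.05. All points at 0 h are open, and at 4 h *Dusp1*, *Ier2*, *Dusp2* and *Btg2* lie to the right and *Egr3* and *Egr1* to the left as filled points.

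Among the EGR transcription factors, *Egr1* (chromosome 18), which is induced by growth factors and antigen receptors, had 62.6, 53.1 and 52.2 CPM in WT and 64.4, 71.8 and 57.2 CPM in KO at 0 h. It had 62.9, 49.1 and 44.6 CPM in WT and 63.7, 76.8 and 66.0 CPM in KO at 4 h. The genotypes overlapped at 0 h, and at 4 h the highest WT library fell just short of the lowest KO library. The log2 fold change at 4 h was -0.41 ± 0.11 (SE) with an edgeR adjusted p of 0.0292. This call was lost without WT 4 h replicate 2 (-0.38, edgeR adjusted p 0.0537), WT 4 h replicate 3 (-0.30, 0.147), KO 4 h replicate 2 (-0.32, 0.162) or KO 4 h replicate 3 (-0.44, 0.062), and over all alternatives the adjusted p ran from 0.00133 to 0.162.

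*Egr2* (chromosome 10, 67534469 to 67542188), known with *Egr3* for restraining lymphocyte activation, had 12.6, 7.28 and 10.4 CPM in WT and 12.2, 14.2 and 13.9 CPM in KO at 0 h. After culture it had 27.9, 25.2 and 23.5 CPM in WT and 31.7, 34.2 and 29.6 CPM in KO. Every library at 4 h lay above every library at 0 h, and at 4 h all KO libraries lay above all WT libraries. The genotype difference at 4 h, -0.33 ± 0.11 on the log2 scale, missed the threshold (edgeR adjusted p 0.0694). It passed without WT 4 h replicate 1 (-0.40, edgeR adjusted p 0.0433) and with library totals in place of TMM (-0.35, 0.0494), in a range of 0.0433 to 0.247 over the alternatives.

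*Egr3* (chromosome 14, 70077317 to 70082613) had 24.9, 26.3 and 24.6 CPM in WT and 22.2, 22.2 and 24.1 CPM in KO at 0 h. At 4 h it had 13.7, 11.1 and 12.1 CPM in WT and 18.3, 21.5 and 16.7 CPM in KO. WT libraries were thus the higher at 0 h and the lower at 4 h, with no overlap at either time. The 4 h difference was -0.62 ± 0.15 on the log2 scale with an edgeR adjusted p of 0.012, and it was not called without KO 4 h replicate 2 (-0.51, edgeR adjusted p 0.0832, the highest over the alternatives, whose lowest was 0.00323).

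Of the IER genes, *Ier2* (chromosome 8, 84661331 to 84662852), which encodes a small nuclear protein, had 83.2, 64.1 and 70.8 CPM in WT and 76.9, 76.7 and 69.0 CPM in KO at 0 h. Culture left it at 65.1, 50.9 and 58.1 CPM in WT and at 29.5, 35.1 and 35.3 CPM in KO. The genotypes overlapped at 0 h and were apart at 4 h, when every WT library exceeded every KO library. WT exceeded KO at 4 h by 0.80 ± 0.11 on the log2 scale, 1.74-fold, with an edgeR adjusted p of 9.42e-05.

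*Ier5* (chromosome 1, 155096367 to 155099636), a regulator of the heat shock factor HSF1, was among the most abundant. It had 490.6, 473.0 and 502.5 CPM in WT and 424.7, 414.7 and 464.0 CPM in KO at 0 h. It had 319.9, 314.1 and 377.3 CPM in WT and 378.1, 396.7 and 359.0 CPM in KO at 4 h. WT was the higher at 0 h without overlap, and the groups overlapped at 4 h through WT replicate 3. The log2 differences, 0.16 ± 0.05 at 0 h and -0.16 ± 0.07 at 4 h, had edgeR adjusted p of 0.17 and 0.184. Without WT 4 h replicate 3 the 4 h value was -0.25 and was called (edgeR adjusted p 0.0343, in a range up to 0.459 over the alternatives).

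*Ier3* (chromosome 17, 35821713 to 35822911), a stress-inducible modulator of apoptosis, was close to the limit of counting. It had 0, 4 and 2 reads in the WT and 1, 4 and 3 reads in the KO libraries at 4 h, and it was not tested. It was not among the genes counted at 0 h, where no gene under 10 reads over the 6 libraries was listed. A difference between genotypes was not detectable at this depth.

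The phosphatase gene *Dusp1* (chromosome 17, 26505591 to 26508472), which acts mainly on p38 and JNK, had 41.0, 20.9 and 19.7 CPM in WT and 22.6, 21.5 and 17.5 CPM in KO at 0 h. At 4 h it had 25.2, 20.0 and 26.1 CPM in WT and 9.74, 11.6 and 10.6 CPM in KO. WT 0 h replicate 1 stood well above the other libraries, and at 4 h the genotypes did not overlap. The 4 h difference of 1.16 ± 0.14 on the log2 scale, 2.24-fold, was the largest of the 9 genes (edgeR adjusted p 5.1e-05). At 0 h the difference was 0.39 ± 0.22, and -0.02 without WT 0 h replicate 1.

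*Dusp2* (chromosome 2, 127336159 to 127338377), also known as PAC-1 and expressed mainly in blood cells, had 231.5, 170.2 and 185.7 CPM in WT and 204.1, 205.6 and 186.9 CPM in KO at 0 h. It had 134.9, 124.2 and 133.0 CPM in WT and 86.6, 82.9 and 98.2 CPM in KO at 4 h. All cultured libraries lay below all uncultured ones, and the KO libraries were the lowest. At 4 h WT exceeded KO by 0.55 ± 0.07 on the log2 scale, 1.47-fold, with an edgeR adjusted p of 9.37e-05.

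*Zfp36* (chromosome 7, 28376784 to 28379228) had 734.2, 654.4 and 649.5 CPM in WT and 631.4, 679.5 and 578.1 CPM in KO at 0 h. At 4 h it had 478.5, 401.2 and 438.1 CPM in WT and 438.9, 414.5 and 448.9 CPM in KO. The genotypes overlapped at both times. The 4 h difference was 0.02 ± 0.07 on the log2 scale (edgeR adjusted p 0.92), and 2 standard errors around it span -0.12 to 0.15. *Gm44710* is annotated on the opposite strand and overlaps this span. How reads in the overlap were counted is not known, since neither the annotation nor the strand setting was given.

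*Btg2* (chromosome 1, 134074865 to 134079155) had 278.5, 260.1 and 244.5 CPM in WT and 246.9, 237.7 and 254.8 CPM in KO at 0 h. It had 338.1, 286.1 and 308.5 CPM in WT and 240.6, 262.1 and 239.9 CPM in KO at 4 h. The WT libraries at 4 h stood above all others, and the KO libraries at 4 h lay among those at 0 h. WT was higher at 4 h by 0.33 ± 0.07 on the log2 scale, 1.26-fold, with an edgeR adjusted p of 0.00485.

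Per length of exonic sequence (RPKM, CPM per kilobase of exon), the 9 genes spread widely in WT at 0 h. The length used was the union of exons over the annotated transcripts of a gene. In *Zfp36* (3470 bases), *Dusp1* (3311 bases) and *Egr1* (4484 bases) it was well over the RefSeq span, which lowers their RPKM. The values of these genes therefore depend on the annotation used. *Zfp36* was highest at 195.8 ± 13.7 RPKM (SD, n = 3), followed by *Ier5* at 149.2 ± 4.53. *Dusp2*, at 97.8 ± 15.9 RPKM, and *Btg2*, at 95.2 ± 6.22 RPKM, differed by less than their spread, and *Ier2* came next at 47.7 ± 6.37 RPKM. The 4 least abundant were *Egr1* at 12.5 ± 1.28, *Dusp1* at 8.22 ± 3.60, *Egr3* at 5.74 ± 0.21 and *Egr2* at 2.98 ± 0.79 RPKM, of which *Dusp1* and *Egr3* differed by less than the spread of *Dusp1*. At 4 h *Egr2*, at 7.51 ± 0.65 RPKM, was above *Egr3*, at 2.79 ± 0.30 RPKM, in WT, and the same held in KO (9.37 ± 0.67 and 4.27 ± 0.55 RPKM). Before culture *Egr3* had been the higher of this pair in both genotypes, with 5.18 ± 0.24 against 3.96 ± 0.31 RPKM in KO.

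Culture itself was compared next, as 4 h over 0 h within each genotype. In WT, 7 of 9 genes changed, where 33.1% of the 11563 genes tested did (15.1% rose and 18% fell), and libraries of the 2 times did not overlap in 6 of 9, against 40.9% of all genes. *Egr2* rose by 1.33 ± 0.15 on the log2 scale (2.51-fold, edgeR adjusted p 6.95e-07), and *Btg2* rose by 0.25 ± 0.07 (edgeR adjusted p 0.00473). *Egr3* fell by 1.04 ± 0.13 on the log2 scale, *Zfp36* fell by 0.63 ± 0.07, *Dusp2* fell by 0.58 ± 0.09, *Ier5* fell by 0.53 ± 0.07 and *Ier2* fell by 0.32 ± 0.10, with edgeR adjusted p of 3.15e-07 to 0.0169. *Egr1* (-0.11 ± 0.12) and *Dusp1* (-0.18 ± 0.20) did not pass the test. The fall of *Ier2* in WT was not called without WT 0 h replicate 1 (-0.22, edgeR adjusted p 0.105), without WT 4 h replicate 2 (-0.24, 0.093) or with library totals in place of TMM (-0.22, 0.0837), in a range of 0.00605 to 0.105 over the alternatives. For *Dusp1*, leaving out WT 0 h replicate 1 gave 0.23.

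In KO, 6 of 9 genes changed, where 23.3% of all genes did (10.3% rose and 13% fell), and libraries of the 2 times did not overlap in 7 of 9, against 41.9% of all genes. *Egr2* rose by 1.25 ± 0.15 on the log2 scale (2.37-fold, edgeR adjusted p 2.38e-06), as the only gene of the 9 called higher. *Dusp2* fell by 1.16 ± 0.09 on the log2 scale, *Ier2* fell by 1.15 ± 0.11, *Dusp1* fell by 0.94 ± 0.23, *Zfp36* fell by 0.54 ± 0.07 and *Ier5* fell by 0.20 ± 0.07, with edgeR adjusted p of 4.77e-09 to 0.0329. *Egr3* (-0.27 ± 0.13, edgeR adjusted p 0.123), *Egr1* (0.10 ± 0.11) and *Btg2* (0.01 ± 0.07) were not called. The *Ier5* call had the highest adjusted p of these. It was lost with library totals in place of TMM (-0.11, edgeR adjusted p 0.247) and without KO 0 h replicate 1 (-0.22, 0.0642), KO 0 h replicate 3 (-0.15, 0.163), KO 4 h replicate 1 (-0.20, 0.08) or KO 4 h replicate 3 (-0.16, 0.144), in a range of 0.00588 to 0.247 over the alternatives.

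**Figure D3:**
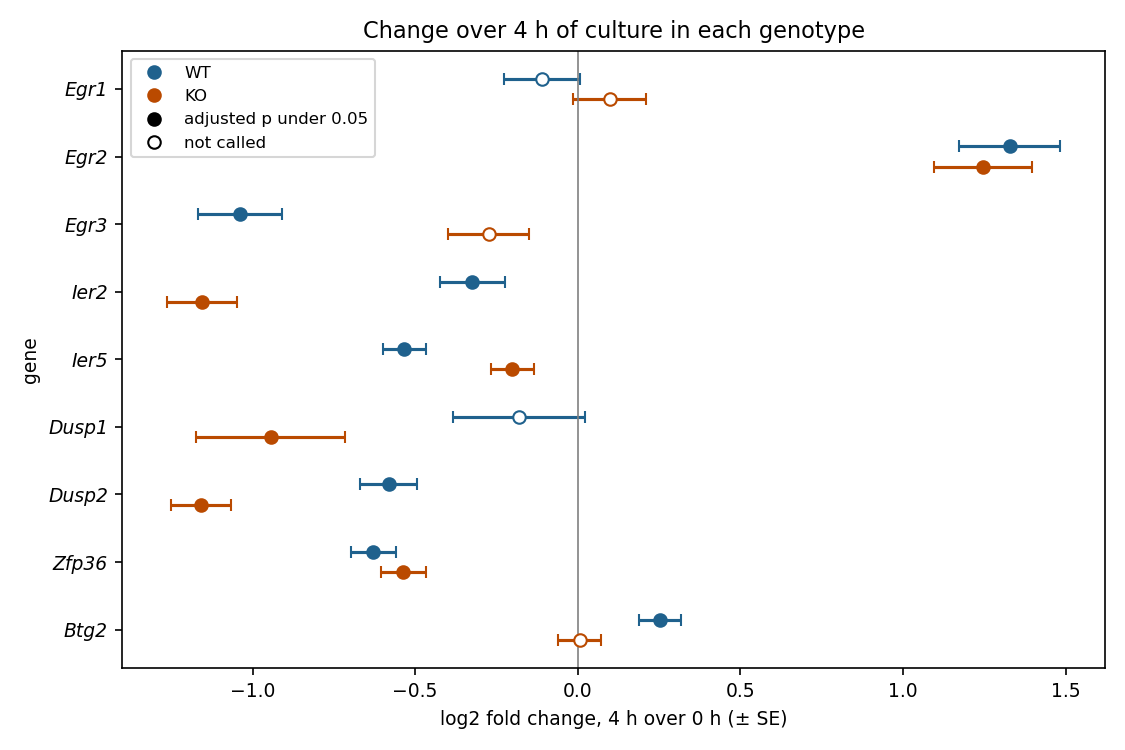
Log2 fold change of 4 h over 0 h (x axis, point ± SE) for each gene (y axis) in WT and in KO, from 3 libraries a group, with filled points for an adjusted p under 0.05. *Egr2* rises by 1.33 in WT and 1.25 in KO, *Ier2* and *Dusp2* lie further to the left in KO, and *Egr3* and *Ier5* further to the left in WT.

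Whether the culture change itself depended on genotype was tested as an interaction, the change in WT minus that in KO. It was called for 4 of 9 genes, where 6.39% of all genes were called (2.45% with the higher value in WT and 3.94% with the lower). *Ier2* (0.83 ± 0.15 on the log2 scale, edgeR adjusted p 0.000773) and *Dusp2* (0.58 ± 0.13, edgeR adjusted p 0.00614) fell less in WT than in KO. *Egr3* (-0.76 ± 0.18, edgeR adjusted p 0.0104) and *Ier5* (-0.33 ± 0.09, edgeR adjusted p 0.0359) had the larger fall in WT. The *Ier5* call was lost with library totals in place of TMM (-0.31, edgeR adjusted p 0.0636) and in 8 of the 12 fits that left out a library (WT 0 h replicate 1 or 3, KO 0 h replicate 1 or 2, WT 4 h replicate 1 or 2, KO 4 h replicate 1 or 2), in which its value ran from -0.33 to -0.28, with adjusted p of 0.00306 to 0.11 over all alternatives.

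*Dusp1* had an interaction of 0.76 ± 0.31 (edgeR adjusted p 0.179), so its larger genotype difference at 4 h was not shown to exceed that at 0 h. Without WT 0 h replicate 1, the library at 41.0 CPM, the value was 1.18 and was called (edgeR adjusted p 0.00086, in a range up to 0.358 over the alternatives). *Btg2* had 0.25 ± 0.09 (edgeR adjusted p 0.14). *Egr1* had -0.21 ± 0.16 (edgeR adjusted p 0.578), and its genotype difference was -0.21 ± 0.10 at 0 h already, which was not called. For *Egr2* the interaction was 0.08 ± 0.22, and 2 standard errors around it span -0.35 to 0.52, so changes of that size in either direction were not detectable at this depth.

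Several lists of genes other than these moved with genotype or culture, and their part in the results above was not tested. At 4 h the 8 follicular B cell markers counted summed to 7334 to 7534 CPM in KO and 6028 to 6354 CPM in WT. Mean *Cd22* (1050 and 513.4 CPM) and *Fcer2a* (983.0 and 527.6 CPM) were higher in KO, while *Cd79a* and *Cxcr5* were higher in WT. The 6 marginal zone B cell markers summed to 378.7 to 424.1 CPM in KO and 241.8 to 284.6 CPM in WT. Mean *Cr2* among them was 299.4 and 158.7 CPM, while *Dtx1* (64.6 and 75.1 CPM) and *S1pr3* (2.43 and 2.89 CPM) were higher in WT. The 5 plasma cell markers summed to 442.2 to 477.5 CPM in KO and 518.8 to 570.2 CPM in WT, most of it *Irf4* (371.4 and 434.5 CPM). The 5 of 6 dendritic cell markers counted at 4 h, without *Clec9a*, summed to 3.55 to 8.15 CPM in KO and 9.03 to 14.1 CPM in WT, and the ribosomal RNA precursor *Rn45s* took 6.65% to 7.59% of counts in KO and 7.78% to 11.2% in WT. Macrophage markers, taken as a sum, were lower after culture in both genotypes. At 0 h they summed to 87.6 to 103.9 CPM over 12 of 13 listed symbols, with *Adgre1* counted under its older symbol *Emr1*. At 4 h they summed to 29.2 to 52.5 CPM over 8, where *C1qa*, *C1qb*, *C1qc* and *Fcgr1* were not counted. Mean *Emr1* rose in KO, from 3.28 to 7.27 CPM, and fell in WT, from 5.76 to 4.65 CPM. The means of the other markers counted at both times fell in both genotypes. That of *Cd68* fell only slightly, from 18.2 to 15.9 CPM in WT and from 15.3 to 14.4 CPM in KO. Neutrophil markers, of which 6 of 9 were counted at 0 h and *Elane* and *Mpo* were not, summed to 41.4 to 133.7 CPM in KO and 20.8 to 58.4 CPM in WT at 0 h. At 4 h, with 8 counted and *Elane* at 0 in KO, they summed to 21.5 to 122.2 CPM in KO and 23.8 to 57.9 CPM in WT. Proliferation genes were called lower in WT in 10 of 20 at 0 h and in 3 of 20 at 4 h. Of all genes tested, 55 of 11345 were called lower in WT at 0 h and 5.67% at 4 h. Without KO 0 h replicate 1 the 0 h count was 6, and the 4 h count was 8 without KO 4 h replicate 1 and 1 without KO 4 h replicate 2 or 3. Their summed level was 226.4 to 332.5 CPM in WT and 520.0 to 713.7 CPM in KO at 0 h and 210.4 to 282.7 and 258.6 to 450.7 CPM at 4 h.

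Relatives of these genes were then examined as a list of 20, made of further members of the same families and the EGR corepressors *Nab1* and *Nab2*. *Egr4*, *Dusp9*, *Zfp36l3*, *Btg3* and *Btg4* had no counts listed, and 15 were tested at 4 h. At 4 h, 6 of the 15 were called, each higher in WT (5.22% of all genes were called higher), and 14 of the 15 had a positive value, with a median log2 fold change of 0.31 beside 0.00 over all genes. In the interaction, 3 of the 15 (*Dusp5*, *Tob2* and *Zfp36l1*) were called, each with the higher value in WT (2.45% of all genes). At 0 h only *Nab1* of 13 tested was called (0.34 ± 0.07, higher in WT, edgeR adjusted p 0.0381), a call that was lost with library totals and in at least 5 of the 6 fits that left out a library.

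*Dusp5*, a nuclear phosphatase specific for ERK, differed most of the relatives. It had 1.23 to 2.14 CPM in WT and 0.74 to 1.77 CPM in KO at 0 h, and 4.74 to 6.13 CPM in WT and 0.26 to 0.81 CPM in KO at 4 h. The 4 h difference was 3.11 ± 0.38 on the log2 scale (edgeR adjusted p 4.29e-05) and the interaction was 2.60 ± 0.62 (edgeR adjusted p 0.0118), both on few reads. *Dusp6* and *Dusp7*, cytoplasmic phosphatases of ERK, fell in culture in both genotypes, by 1.69 and 1.24 on the log2 scale in WT, and were not called between genotypes at 4 h (0.23 ± 0.17 and 0.03 ± 0.10). *Dusp4* rose in WT culture (0.51 ± 0.12, edgeR adjusted p 0.00195) and was not called in KO culture (0.13 ± 0.12), a difference that was not called in the interaction (0.39 ± 0.17, edgeR adjusted p 0.236). *Dusp10* and *Dusp16* were not called at 4 h between genotypes, and *Dusp8*, at 1.58 to 2.04 CPM in KO and 0.47 to 1.45 CPM in WT, had -1.01 ± 0.45.

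The relatives of *Zfp36* and *Btg2* also differed at 4 h. *Zfp36l1*, which like *Zfp36* promotes mRNA decay, had 701.8 to 743.3 CPM in WT and 537.7 to 551.9 CPM in KO, a difference of 0.40 ± 0.05 (edgeR adjusted p 0.000118) with an interaction of 0.31 ± 0.07 (edgeR adjusted p 0.011). *Zfp36l2* differed by 0.38 ± 0.07 (edgeR adjusted p 0.00125). *Zfp36* itself, as given above, differed by 0.02 ± 0.07. Among the BTG and TOB genes, *Tob2* had 127.2 to 158.6 CPM in WT and 93.6 to 97.8 CPM in KO, a difference of 0.58 ± 0.08 (edgeR adjusted p 9e-05) with an interaction of 0.64 ± 0.11 (edgeR adjusted p 0.00055), while *Btg1* (0.08 ± 0.06) and *Tob1* (0.36 ± 0.14) were not called.

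*Nab2*, which binds EGR proteins and represses their targets, was higher in WT at 4 h, at 76.2 to 80.9 CPM against 60.5 to 63.6 CPM in KO (0.33 ± 0.07, edgeR adjusted p 0.00594). *Egr1* and *Egr3* were the lower in WT at that time. *Nab1* was not called at 4 h (0.12 ± 0.07). *Ier5l* (IER5-like) had 2.03 to 3.90 CPM in WT and 0.39 to 1.07 CPM in KO, with a difference of 1.92 ± 0.43 on few reads (edgeR adjusted p 0.00828).

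**Figure D4:**
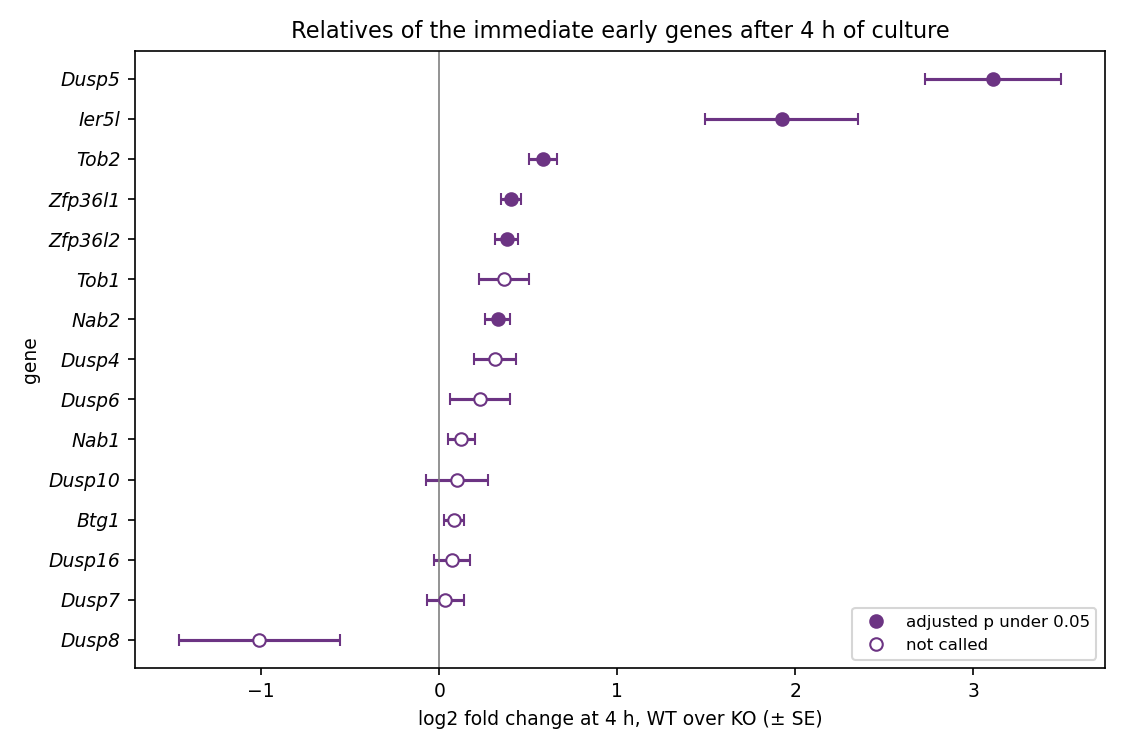
Log2 fold change of WT over KO at 4 h (x axis, point ± SE) for the 15 relatives tested (y axis), from 3 libraries a group, with filled points for an adjusted p under 0.05. The 6 filled points all lie to the right of 0, led by *Dusp5* at 3.11 and *Ier5l* at 1.92, both on few reads.

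Other immediate early genes were called at 4 h in 16 of 32 tested, with 15 higher in WT and 1 lower (*Klf2*, named after its value was seen), where 5.22% of all genes were called higher and 5.67% lower, and their median log2 fold change was 0.40. The largest differences called were 2.90 ± 0.17 for *Plk2*, 2.68 ± 0.25 for *Fosl2*, 2.25 ± 0.09 for *Sik1* and 1.80 ± 0.26 for *Nr4a2*, beside 1.16 ± 0.14 for *Dusp1*. Those of *Fosl2* and *Nr4a2* rest on few reads in KO, at 1.32 to 2.63 CPM and 1.55 to 2.44 CPM. *Sik1*, a kinase gene, rose in WT culture by 0.73 ± 0.08 on the log2 scale and fell by 1.51 ± 0.10 in KO culture (interaction 2.24 ± 0.13, edgeR adjusted p 2.75e-10). No member of the 9 was called in opposite directions in the 2 genotypes.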

How the data were processed

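Follicular B cell RNA from 12 libraries was amplified (NuGEN Ovation RNA-seq System V2) and sequenced as single-end reads. The authors aligned reads to mm10 with STAR and counted them per gene with HTSeq (versions, annotation and strand setting not given in the sources used here), and deposited raw counts, without normalization, in a table each for 0 h (13269 genes) and 4 h (13142 genes). Neither table held a gene under 10 reads over its 6 libraries.

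Counts were scaled by TMM and filtered with filterByExpr, then tested with edgeR 4.0.16 (glmQLFit, glmQLFTest) in R 4.3.3, with Benjamini-Hochberg adjustment over all genes tested and a call at an adjusted p under 0.05. Genotypes were compared with the 6 libraries of a time. Culture and interaction came from 1 fit of 12 libraries over genes in both tables, without pairing by mouse. Each ± after a fold change is its standard error. RPKM used GENCODE M21 exon lengths, which may differ from the annotation that was counted.

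Replicates of a group differed beyond sampling noise (chi-square per degree of freedom 1.94 to 9.30). A permutation of 3 against 3 libraries cannot give a p under 0.1, so the adjusted p depends on edgeR's model of counts. That model sets a group difference against the spread between these libraries, which it estimates with information from all genes. Reads carried no molecular identifiers, so errors cover counting and replicate spread only. Alternatives were RLE scaling, library totals, DESeq2 1.42.0, other filters, a replicate block, other sample sets and leaving out each library. Scripts were tested on simulated data. The genes and lists were chosen with earlier results of these data known, all 10 genes are named, and from other lists up to 4 called genes with the largest difference at 4 h or in the interaction, with every relative open to naming. A list of ERK pathway genes is not reported here.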

Additional observations from a re-analysis of the deposited data

Results flagged for a closer look

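In 4 of the 9 genes tested the change over culture differed between genotypes by the test of that difference itself, the interaction, given as the WT change minus the KO change on the log2 scale. The difference was 0.83 ± 0.15 (SE) for *Ier2* (edgeR adjusted p 0.000773) and 0.58 ± 0.13 for *Dusp2* (edgeR adjusted p 0.00614), whose falls were the larger in KO. It was -0.76 ± 0.18 for *Egr3* (edgeR adjusted p 0.0104) and -0.33 ± 0.09 for *Ier5* (edgeR adjusted p 0.0359), whose falls were the larger in WT. The *Ier5* call was lost in 8 of the 12 fits that left out a library.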

How the results depend on the processing

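Over 765 values of the 9 genes under the alternatives, 726 kept their direction and their side of the threshold, 22 lost a call, 4 gained one and 13 reversed. All reversals were of differences not called. With library totals only, *Zfp36* at 4 h between genotypes was -0.00615. With the stricter filter *Btg2* in KO culture was -0.00295. The others came from leaving out 1 library. Between genotypes at 0 h the range over such fits was -0.0209 (without WT 0 h replicate 1) to 0.583 for *Dusp1*, -0.141 to 0.0406 (WT 0 h replicate 2) for *Ier2* and -0.164 to 0.0576 (WT 0 h replicate 2, and 0.00565 without WT 0 h replicate 3) for *Dusp2*. At 4 h it was -0.0532 (WT 4 h replicate 1, and -0.0137 without KO 4 h replicate 2) to 0.0763 for *Zfp36*. In WT culture it was -0.374 to 0.233 (WT 0 h replicate 1) for *Dusp1* and -0.259 to 0.00222 (WT 4 h replicate 3) for *Egr1*. In KO culture it was -0.0361 (KO 4 h replicate 2, and -0.0189 without KO 0 h replicate 2) to 0.0306 for *Btg2*, and in the interaction -0.0991 (WT 0 h replicate 2) to 0.256 for *Egr2*. The cause was not tested.

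Leaving out 1 library gave 26 (without KO 0 h replicate 1) to 161 (without WT 0 h replicate 1) genes called at 0 h against 112, with 50, 59 and 55 without WT 0 h replicate 2, WT 0 h replicate 3 and KO 0 h replicate 3. It gave 776 (without KO 4 h replicate 1) to 1361 genes at 4 h against 1212. For the 9 genes the counts were 0 at 0 h, 4 to 7 at 4 h, 6 to 7 in WT culture, 5 to 6 in KO culture and 3 to 4 in the interaction.

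Library totals in place of TMM moved the median of all genes by 0.11 in WT culture and 0.09 in KO culture, and changed the genes called higher and lower from 1749 and 2079 to 3003 and 1500 in WT and from 1193 and 1504 to 2168 and 1102 in KO. At 0 h between genotypes the split changed from 57 and 55 to 37 and 68, and to 61 and 36 with all 12 libraries in one fit.

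The labels do not say that a shared replicate number marks a shared mouse, so the number was treated as a name only. Deviations from the group mean correlated at 0.08 to 0.13 between WT 0 h and WT 4 h and at -0.04 to 0.15 between KO 0 h and KO 4 h, and the best match was the own number in 6 of 6 WT and 4 of 6 KO libraries. With the replicate block 138 genes were called at 0 h and 1062 at 4 h. The same 6 genes of the 9 were called at 4 h and the same 4 in the interaction. That block joined WT and KO libraries of the same number, which come from different mice. It therefore cannot show whether 0 h and 4 h libraries of a genotype shared a mouse. A block within each genotype was not fitted, so the effect of such sharing on the culture comparisons and the interaction was not tested. At these depths the median SE of a log2 difference was 0.12 at 0 h, 0.11 at 4 h and 0.17 in the interaction.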

Other observations

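Heat shock and chaperone genes, which share stress inducers with the immediate early genes, were examined beside them. At 4 h between genotypes 3 of 11 were called, all higher in WT (*Hspa8* at 0.28 ± 0.07, *Hsph1* and *Dnajb1* at 0.25, edgeR adjusted p 0.019 to 0.0297), where 5.22% of all genes were called higher. No gene of the list was called without WT 4 h replicate 3, KO 4 h replicate 1 or KO 4 h replicate 2, and 1 was called without WT 4 h replicate 1 or KO 4 h replicate 3. In culture 7 of 11 were called lower in each genotype, not all of them the same genes. In each genotype 1 was called higher (*Hspa1a*, named after its value was seen). Of all genes 18% were called lower and 15.1% higher in WT culture, and 13% and 10.3% in KO culture. Their summed level was 2459 to 3472 CPM in WT and 2301 to 3599 CPM in KO at 0 h, and 1867 to 2205 CPM and 1908 to 2040 CPM at 4 h.

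The genes with the pattern most like each of the 9, by Pearson's r of log2 CPM over the 12 libraries and 11562 other genes, are given as a description, since the libraries form 4 groups. They were *Fos* for *Dusp2* (r = 0.98), *Ddit4* for *Zfp36* (0.979), *Rftn1* for *Egr2* (0.977), *Snn* for *Egr3* (0.973), *Cotl1* for *Ier2* (0.967), *Map4k4* for *Ier5* (0.963), *Plekha2* for *Btg2* (0.938) and *Junb* for *Dusp1* (0.932). *Egr1* had no gene closer than *Kctd10* and the neutrophil marker *Ngp*, both at 0.876. Among the 9 themselves *Ier2* and *Dusp2* were closest (r = 0.961), followed by *Dusp2* and *Zfp36* (0.895) and *Egr3* and *Ier5* (0.893), while *Egr2* and *Zfp36* ran opposite (-0.887).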
